A study of Mus musculus with 2 samples.

Results

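Splanchnic mesoderm cells were examined within droplet RNA profiles of C57BL/6 mouse embryos at E9.5, dissected from the middle of the otic placode to the hind edge of somite 4, where cardiac neural crest lies. The 876 cells were chosen from 21723 by a rule on their own unique molecular identifier (UMI) counts. A member had at least 1 UMI in 2 or more of Foxf1, Osr1, Gata4, Gata6 and Hand1. It also had at most 5 UMIs summed over the cardiac muscle genes Myl7, Myl4, Actc1 and Tnnt2, no UMI of Epcam, Sox10 or Sox1, and fewer than 3 of 9 endothelial genes detected. There were 2 libraries, 1 per genotype: WT (Prdm6+/+; Wnt1-Cre2; ZsGreen1) with 571 members among 11958 cells, and KO (Prdm6f/f; Wnt1-Cre2; ZsGreen1) with 305 members among 9765 cells. Both genotypes carried Wnt1-Cre2, which drives Cre from Wnt1 regulatory sequence, and ZsGreen1, a green reporter that Cre turns on. Only KO embryos carried floxed Prdm6, which encodes a PR domain protein of the nucleus. Splanchnic mesoderm is by origin not part of the Wnt1 lineage, whether Prdm6 was deleted in any member was not measured, and the labels name the captured cells as cardiac neural crest. No sorting was described, and cells were not assigned to single embryos here.

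Splanchnic mesoderm is the inner sheet of the lateral plate. It wraps the foregut and gives rise to the mesenchyme and smooth muscle of gut and lung, and it borders the heart field, the septum transversum and the proepicardium, the source of the epicardium. Hedgehog ligands from the endoderm act on it through the receptor Ptch1 and the Gli factors, and Foxf1, a forkhead factor, is a known target of that signal. Gata4 and Gata6 are zinc finger factors of heart, gut and lateral mesoderm, Hand1 is a basic helix-loop-helix factor of lateral and extraembryonic mesoderm, and Osr1 is a zinc finger factor of lateral and intermediate mesoderm.

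The WT library held 20781384 UMIs (median 1597 per cell) and the KO library 18936857 (median 1703 per cell). Members were deeper than the rest, with a median of 1943 UMIs in WT and 2253 in KO against 1579 and 1676.5 in all other cells. The libraries shared 26 cell barcodes, of which 1 belonged to a WT member and 0 to a KO member. Levels are UMIs per 1000000 UMIs (CPM) summed over the cells of a set in a library, which compares a gene between sets of cells and is not used to rank genes. Intervals are exact, at 95%, and cover counting error only. With 1 library per genotype no difference between genotypes has a replicate check, no test was made, and no p-value is given. A gene is counted here as higher or lower past 2-fold where its ratio was at least 2-fold and its interval lay clear of equality. In pooled cells, fewer cells of a kind and less RNA per cell cannot be told apart.

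The members were defined mostly by Gata6 and Gata4. Gata6 (chromosome 18, 11052064 to 11085635, GRCm38) was detected in 82.1% of WT and 81.3% of KO members, and Gata4 (chromosome 14, 63198922 to 63271692) in 53.6% and 51.1%. Foxf1 (chromosome 8, 121084386 to 121088144) was detected in 36.1% and 35.1%, Osr1 (chromosome 12, 9570116 to 9581500) in 33.6% and 44.3%, and Hand1 (chromosome 11, 57828705 to 57832818) in 21.0% and 13.8%. The most frequent pair was Gata4 with Gata6, found in 258 WT members (45.2%) and 135 KO members (44.3%). Osr1 with Hand1 was the rarest of the 10 pairs, with 7 WT and 2 KO members. Most members sat at the threshold: 443 WT and 238 KO cells had exactly 2 markers, 105 and 56 had 3, 23 and 11 had 4, and 0 had all 5. Just outside it, 1501 WT and 1010 KO cells passed the exclusions with 1 marker. At the cardiac limit of 5 UMIs there were 31 WT and 20 KO members, and 23 and 5 cells with the markers were just over it.

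How often the marker part of the rule was met was also counted in cells chosen by a gene of another lineage. Among cells with a Sox10 UMI, a neural crest marker, 2 or more rule markers were found in 19 of 648 WT cells (2.93%, interval 1.77 to 4.54%) and 15 of 594 KO cells (2.53%, 1.42 to 4.13%), at median depths of 2212 and 2540.5 UMIs. Among cells in which globins made up at least 20% of the UMIs, it was 3 of 123 in WT and 0 of 45 in KO, which allows up to 6.67%. It was higher in cells with a Sox1 UMI, a neural tube marker (5.83% in WT and 3.69% in KO, medians 1683 and 1828 UMIs), and in cells with an Epcam UMI, an epithelial marker (6.31% and 4.87%, medians 2019 and 2386.5). Among all cells that passed the exclusions the share was 7.03% in WT and 4.597% in KO, at medians of 1446 and 1513 UMIs. The cells that met it in the other sets were themselves not uniform with their sets. Gata5, outside the rule, stood at 214 CPM in WT and 339 in KO in those with a Sox1 UMI (all Sox1 cells 38.5 and 34.2), and Sox2, a neural factor, at 66.8 and 61.6 (227 and 231). In those with an Epcam UMI Gata5 stood at 120.4 and 221 CPM (all Epcam cells 28.1 and 38.4), and in those with a Sox10 UMI at 44.9 and 160.4 (14.5 and 11.5). These shares are therefore not a pure background rate, and the Epcam set can hold gut endoderm, in which Gata4 and Gata6 are known to act. How many members belong to other kinds of cell was not measured. Gene by gene, Foxf1 was detected in 2.16% of WT and 1.18% of KO cells with Sox10, and Gata6 in 10.5% and 8.08%, while its detection in members was set by the rule.

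Genes that the rule did not read were then compared between members and all other cells. Of 3920 genes with at least 100 UMIs in members, 39 were at least 2-fold higher in members than in all other cells in both libraries (0.995% of genes) and 7 were at least 2-fold lower in both (0.179%), with 10 CPM added to each side. These folds come from the cells that the rule selected and are given as a description. The list was led by Postn, which encodes the matrix protein periostin (211 CPM in WT members against 28.9 in other cells, and 98.8 against 10.5 in KO). Barx1, a homeobox factor of stomach mesenchyme, stood at 103 against 15.7 CPM in WT and 100.2 against 9.16 in KO. Gata5, the third GATA factor of this family in lateral mesoderm, stood at 217 against 44.7 CPM and 317 against 44.9.

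The 15 leading genes also included Col1a1, Bhlhe41, Shisa3, Myrf, Rspo1, Cxcl13, Plagl1, Ifitm1, Runx1t1, Lrrn4 and Tbx5. Col1a1, a fibrillar collagen chain, had 821 UMIs in WT members (714 CPM, other cells 109) and 219 in KO members (309 CPM, other cells 70.8). Tbx5, a T-box factor of the posterior heart field, the forelimb field and lung mesoderm, had 94 UMIs in WT and 55 in KO members. Bhlhe41, a transcriptional repressor, stood at 136 CPM in WT and 124 in KO members against 27.5 and 22.3 in other cells.

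**Figure D1:**
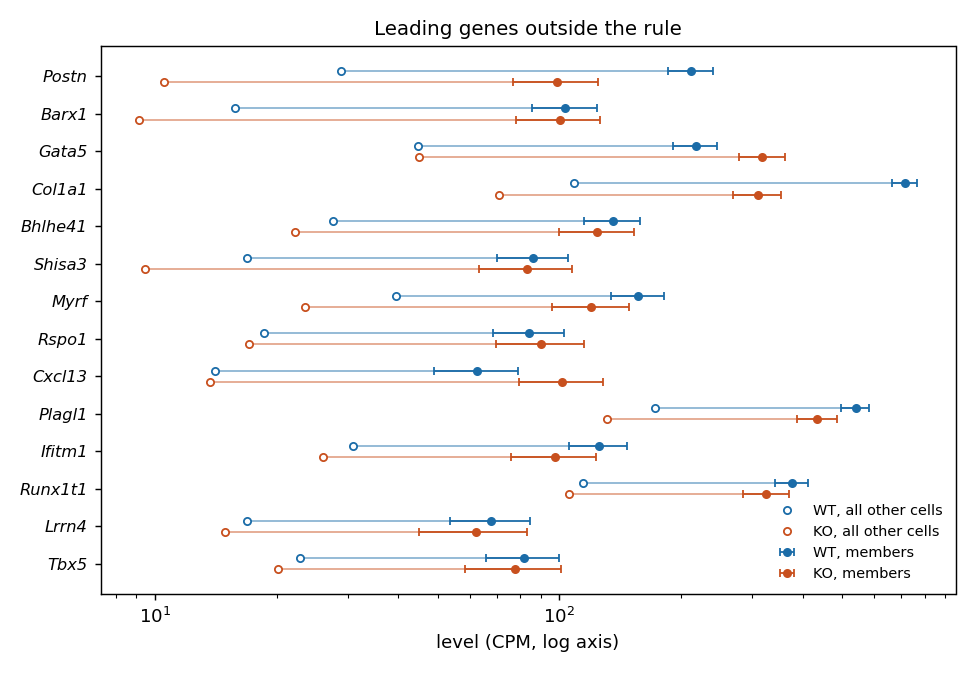
Levels of 14 of the 15 leading genes outside the rule, in CPM on a log axis, in members (filled points with exact 95% Poisson intervals) and in all other cells (open points), for WT (blue) and KO (orange). Filled points lie to the right of open points for each gene in both libraries, which the choice of these genes fixes.

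A list of 16 splanchnic mesoderm genes outside the rule was examined in the same way. Of these, 13 had at least 30 UMIs, and 9 of those were at least 2-fold higher in members in both libraries, where 0.649% of 7709 genes were, and 0 were lower, where 0.208% were. Because the rule chose these cells, nothing is read from that difference. The 9 included Gata5, Barx1, Tbx5, Wnt2, Nr2f2, Tcf21, Hand2 and Bmp4. Wnt2, a ligand of lung mesoderm, stood at 71.3 and 56.4 CPM in WT and KO members against 22.0 and 16.0 in other cells, and Bmp4, a ligand of lateral mesoderm, at 137 and 135 against 44.1 and 34.01. Nr2f2, a nuclear receptor of venous and mesenchymal cells, was abundant in both sets, at 1068 and 1165 CPM in members and 496 and 432 in other cells. Nr2f1 did not stand apart, at 465 and 522 CPM against 508 and 471.

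Levels outside the rule also followed the number of rule markers in a cell. From 0 to 4 markers, among cells that passed the exclusions, Gata5 went from 19.97 through 82.5, 187 and 290.0 to 401 CPM in WT and from 20.1 through 93.1, 263 and 480.0 to 547 CPM in KO. Nr2f2 went from 451 to 1871 CPM in WT and from 379 to 2037 in KO over the same steps. Barx1 was concentrated at the top, with 468 CPM in the 23 WT and 760.2 CPM in the 11 KO cells with 4 markers. Crabp1, a retinoic acid binding protein of neural and crest cells, took the opposite course, from 1580.0 to 551 CPM in WT and from 1757 to 851 in KO. Not each gene was graded: Postn peaked at 2 markers in both libraries (226 and 126 CPM) and stood at 171 and 14.8 CPM at 3. The median depth of the cells went the same way, from 1359 UMIs at 0 markers to 2230 at 4 in WT and from 1445 to 2562 in KO, and its part in these gradients was not tested.

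**Figure D2:**
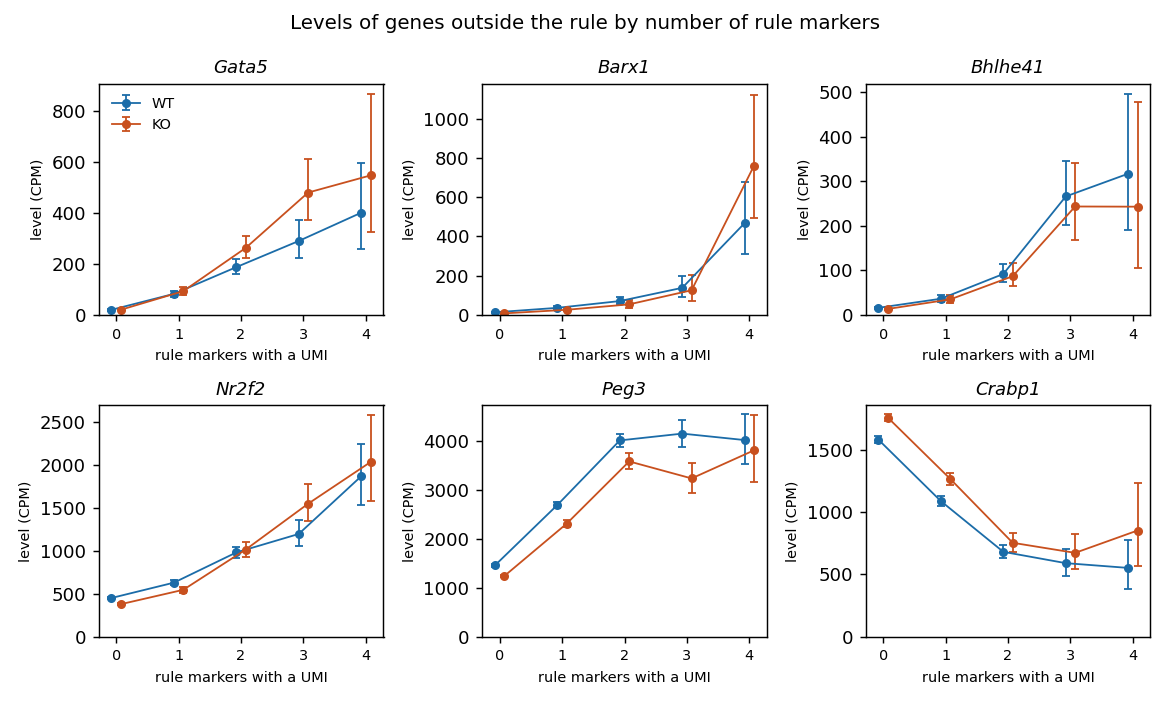
Levels of 6 genes outside the rule, in CPM with exact 95% Poisson intervals, against the number of rule markers with a UMI, among cells that passed the exclusions (WT blue, KO orange). Cells with 2 or more markers are members. Gata5, Barx1, Bhlhe41 and Nr2f2 were higher at 4 markers than at 0 in both libraries, Peg3 levelled off from 2 markers on, and Crabp1 was lower at 4 than at 0.

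Markers of other cell types were mostly below their level in other cells. For neural crest, neural tube, endoderm and cardiac muscle the selection favours this, since cells with Sox10, Sox1, Epcam or more than 5 cardiac UMIs were moved out of the members and into the comparison. The neural crest list (6 genes outside the rule) was lower in members for 6 of 6 genes in both libraries and summed to 117 CPM in WT and 111 in KO members against 206 in other cells of each. The neural tube list was lower for 6 of 7 genes in WT and 7 of 7 in KO (245 and 200.3 CPM against 408 and 403), and the somite list for 6 of 6 in both (65.2 and 63.5 against 204 and 165). Of the cardiac muscle genes that the rule did not read, 6 of 6 were lower in WT and 5 of 6 in KO (336 and 320.2 CPM against 827 and 686). The macrophage and megakaryocyte list had Tyrobp, Ptprc and Gp9 at 0 in members of both libraries. Its remaining signal lay almost wholly in 1 cell: Pf4, a platelet chemokine, had 55 UMIs in WT members, 53 of them in 1 cell, and 3 UMIs in KO members.

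The endoderm list had 6 of 9 genes lower in WT and 5 of 9 in KO, and sums of 325 and 219 CPM in members against 333 and 247. Its keratins were above the other cells in WT and less so in KO. Krt8 stood at 126 CPM in WT and 67.7 in KO members against 78.3 and 64.1, and Krt18 at 115 and 83.2 against 83.2 and 68.1. The erythroid list, 7 globins, was lower in members for 7 of 7 genes (6510 and 2429 CPM against 14490 and 7464), yet Hbb-y alone had a UMI in 96.0% of WT and 86.9% of KO members. The pharyngeal mesoderm list was higher, at 182 and 176 CPM against 85.5 and 81.7, with 1 of 5 genes lower. The endothelial list had 1 gene outside the rule, Kdr, with 43 UMIs in WT and 34 in KO members. The arch mesenchyme list summed to 56.5 and 50.8 CPM (other cells 62.8 and 81.4), and the nephric and intermediate mesoderm list to 5.21 and 9.88 CPM (other cells 21.6 and 19.6).

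Cells nearest in kind were set beside the members. Cardiac muscle cells (more than 5 cardiac UMIs, 1034 in WT and 657 in KO), pharyngeal mesoderm cells (41 and 64 cells with 2 or more of 5 pharyngeal genes that included Tbx1, Isl1, Msc and Lhx2) and somite cells (257 and 192 cells with 2 or more of Tcf15, Meox1, Meox2, Pax1 and Pax9) served as comparisons. The pharyngeal and somite cells had to pass the exclusions of the members and not be members. Cells of those kinds with 2 or more rule markers were thereby left out, which can lower genes that go with the markers. Barx1 was at 103 and 100.2 CPM in WT and KO members, 14.9 and 12.9 in cardiac, 12.7 and 13.9 in pharyngeal, and 3.72 and 0 in somite cells. Tbx5 did not separate members (81.7 and 77.6 CPM) from cardiac cells (102 and 99.5). Wnt2 and Bmp4 in cardiac cells were also near the members, at 67.0 and 51.5 CPM and at 123 and 115 CPM. Hand2 stood at 141 and 140 CPM in members, 159 and 126 in cardiac cells and 255 and 55.8 in pharyngeal cells. Tcf21 stood at 42.6 and 35.3 CPM in members, 21.0 and 12.9 in cardiac cells and 50.9 and 76.7 in pharyngeal cells.

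Ptch1, the hedgehog receptor and target, was higher in the pooled members than in these neighbours. It stood at 728 and 868 CPM in members against 264 and 290 in cardiac, 433 and 642 in pharyngeal, and 525 and 496 in somite cells. Not all members shared this level. Those with Foxf1 or Osr1 and no Hand1 stood at 1074 and 1197 CPM, and the other members at 377 and 388, below the pharyngeal and somite cells. Col1a1 was at 714 and 309 CPM in members and between 87.2 and 153 CPM in the 3 other populations. The second heart field list, 13 genes, summed to 408 and 461 CPM in members and to 1477 and 1325 in pharyngeal mesoderm cells, which were chosen with Tbx1 and Isl1 from that list. Smooth muscle genes summed to 1756 and 1793 CPM in members and 7136 and 7058 in cardiac cells, with Acta2, smooth muscle actin, at 265 and 185 CPM against 2255 and 1803. Myh11, of mature smooth muscle, had 2 UMIs in each library's members.

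The members fell into 3 subsets by which rule markers they carried, a split chosen after values were seen. Cells with any Hand1 UMI formed the first (120 WT, 42 KO). Cells with Foxf1 or Osr1 and no Hand1 formed the second (287 WT, 178 KO), and the remaining cells, with Gata4 and Gata6 alone, the third (164 WT, 85 KO). The median depths of the subsets spanned 1895 to 1998 UMIs in WT and 2031 to 2486.5 in KO. Genes outside the rule were ranked by the lower of the fold in WT and the fold in KO over the other members, again as a description.

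The Hand1 subset was the matrix-rich one. Postn stood at 831 CPM in WT and 524 in KO against 37.8 and 24.8 in the other members, which put 209 of the 243 WT and 55 of the 70 KO Postn UMIs of the members in this subset. Col1a1 stood at 2527 and 1448 CPM against 206 and 111, and Lum, the keratan sulfate proteoglycan lumican, at 266 and 181 against 23.4 and 11.6. Dkk2, a Wnt antagonist, Stard8, Ahnak, Col1a2 and Mab21l2 followed. Few cells carried these genes heavily: Col1a1 was detected in 165 of 571 WT members and 52 of 305 KO members, with up to 51 and 47 UMIs in 1 cell.

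The 12 leading genes of the Foxf1 or Osr1 subset included the hedgehog targets Ptch1 and Hhip, Barx1 and Aldh1a2. Ptch1 stood at 1074 and 1197 CPM in WT and KO against 377 and 388 in the other members, and Hhip, a hedgehog binding protein that is itself a target, at 43.1 and 54.7 against 15.8 and 13.9. Barx1 stood at 157 and 140.4 CPM against 49.1 and 41.6. Bhlhe41 (241 and 190.3 CPM against 28.0 and 27.7) and Cxcl13, a chemokine (105 and 159 against 19.3 and 17.3), led it. Aldh1a2, the retinaldehyde dehydrogenase that makes retinoic acid in mesoderm, was at 128 and 197 CPM against 50.8 and 34.7. The alpha globins Hba-a1 and Hba-a2 were also among its 12 leading genes, with Hba-a2 at 509 and 136 CPM against 110.4 and 52.0, and their part in the pattern was not tested.

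The Gata4 and Gata6 subset was led by Tbx18, a T-box factor of proepicardium and septum transversum, at 194 and 120 CPM against 39.7 and 17.1. Nfia, a nuclear factor I protein, stood at 260.1 and 142 CPM against 72.2 and 19.0, and Sox9, an SRY-box factor of mesenchyme, at 511 and 332 against 167 and 137. Hapln1, a link protein of hyaluronan matrix, stood at 238 and 256 CPM against 84.2 and 93.3. Eng (56.4 and 92.6 CPM against 14.4 and 11.4) and Cd34 (65.8 and 70.8 against 20.4 and 5.71) also ranked among its leading genes. Kdr, of the endothelial list, had 10 and 19 UMIs here (31.3 and 103 CPM). The rule excluded only cells with 3 or more endothelial genes detected, and the part of endothelial cells here was not tested. Wt1, the Wilms tumour factor of proepicardial and coelomic lining cells, had 26 of the 43 WT UMIs here (81.5 CPM), and in KO 4 UMIs (21.8 CPM). Lhx9, a LIM factor of the same lining, had 34 of its 40 WT UMIs here and 0 in KO.

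**Figure D3:**
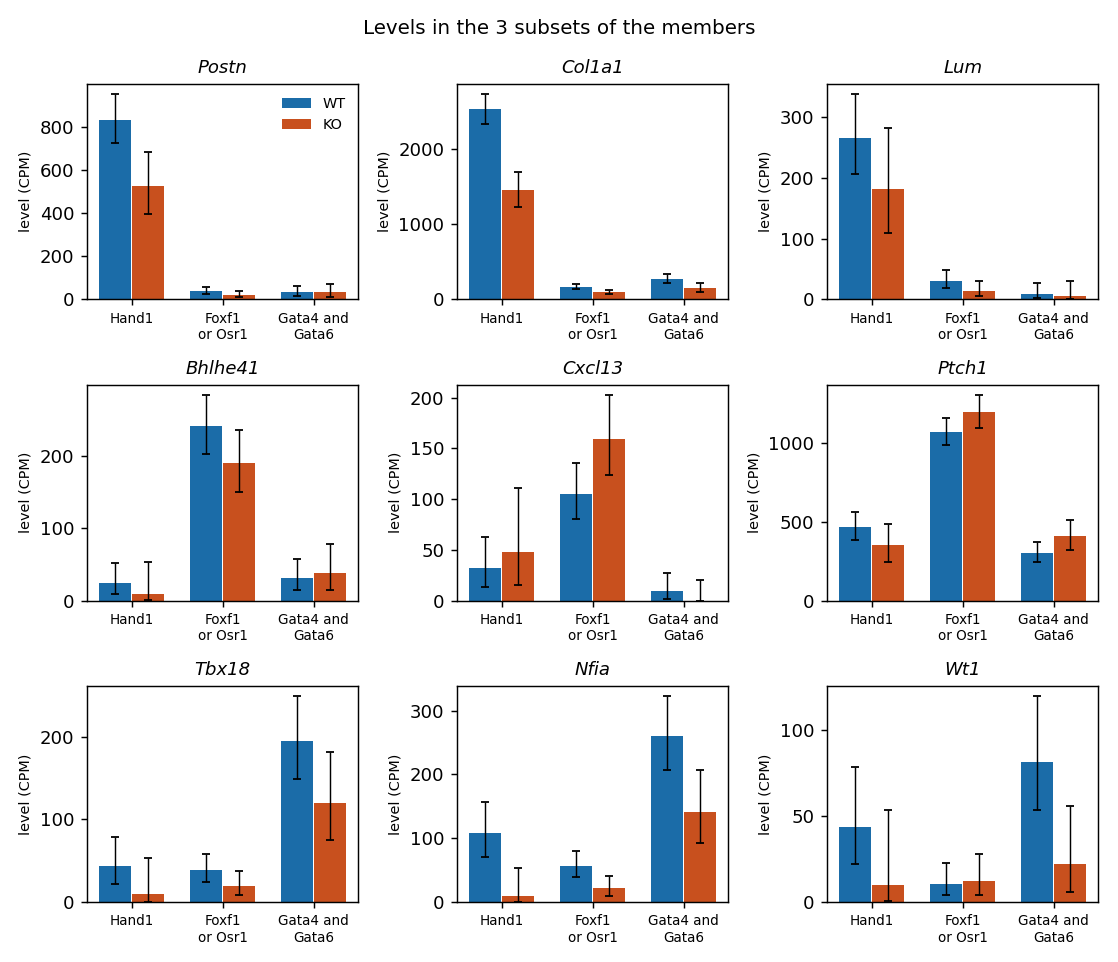
Levels of 9 genes in the 3 subsets of members, in CPM with exact 95% Poisson intervals, for WT (blue) and KO (orange). Postn, Col1a1 and Lum were highest in the Hand1 subset, Bhlhe41, Cxcl13 and Ptch1 in the Foxf1 or Osr1 subset, and Tbx18, Nfia and Wt1 in the Gata4 and Gata6 subset, in WT and KO alike. The genes were chosen after their values were seen.

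Members made up a smaller share of the KO library. They were 4.78% of WT cells (interval 4.40 to 5.17%) and 3.12% of KO cells (2.79 to 3.49%), a log2 ratio of -0.61 (-0.82 to -0.41). Cells were then thinned to 1000 UMIs each, without the 1361 WT and 125 KO cells below that depth. The shares became 3.19% and 1.50% and the log2 ratio -1.08 (-1.38 to -0.80). The cells outside the members failed the marker part of the rule or its exclusions. Before the exclusions 1026 WT and 594 KO cells had 2 or more markers, of which 571 and 305 were members. In all cells outside the members Foxf1 (log2 -0.58), Gata4 (-0.70), Gata6 (-0.31) and Hand1 (-0.74) were lower in KO, and Osr1 was at -0.17 (-0.37 to 0.02). Fewer cells of the members' kind and less marker RNA per cell therefore cannot be told apart.

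The ratio changed sign in 1 setting. Leaving out members with 3 or more detected genes of any other cell type's marker list kept 87 WT and 94 KO cells and gave a log2 ratio of 0.40 (-0.03 to 0.84). Most cells lost there were lost to globins, of which 3 or more were detected in 78.5% of WT and 48.9% of KO members and in 79.9% and 49.4% of other cells. With the erythroid list set aside, 367 WT and 192 KO members remained and the ratio was -0.64 (-0.90 to -0.39). The Hand1 subset was 1.00% of the WT and 0.43% of the KO library (log2 -1.22, -1.77 to -0.70, after thinning -1.60, -2.45 to -0.82). The Foxf1 or Osr1 subset was 2.40% and 1.82% (log2 -0.40, -0.67 to -0.12, after thinning -0.92, -1.36 to -0.50). The Gata4 and Gata6 subset was 1.37% and 0.87% (log2 -0.66, -1.05 to -0.27, after thinning -1.07, -1.54 to -0.62), and the differences between subsets were not tested. Within the members the Hand1 subset was 21.0% of WT and 13.8% of KO cells (log2 -0.61, -1.15 to -0.09), which after thinning was -0.52 (-1.36 to 0.26).

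**Figure D4:**
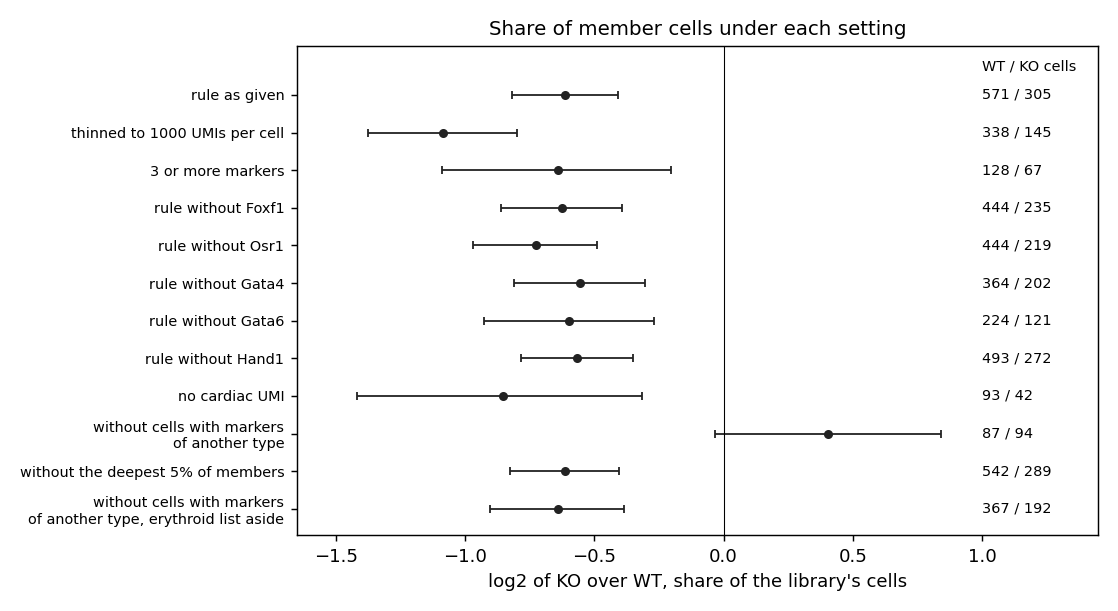
Log2 ratio of KO over WT for the share of a library's cells that met the rule, with exact 95% conditional intervals, under the rule as given and 11 other settings. Numbers at the right are member cells in WT and KO. The ratio was below 0 in each setting but that which left out cells with markers of any other type.

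The targeted gene was sparse in these cells. Prdm6 (chromosome 18, 53463583 to 53575907, GRCm38) had 12 UMIs in 11 WT members (10.4 CPM) and 7 UMIs in 7 KO members (9.88 CPM), a log2 ratio of -0.08 (-1.66 to 1.38). In all other cells it stood at 4.69 CPM in WT and 2.85 in KO (log2 -0.72). Counts of 3′ ends are blind to which Prdm6 allele was transcribed, and they check neither label. Wnt1, which marks the lineage with Cre, had 2 and 3 UMIs in members, 1.74 and 4.23 CPM, against 11.5 and 11.3 CPM in other cells.

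Most genes of the members stood close to equality between genotypes. Of the 3920 genes with at least 100 UMIs, 6 were past 2-fold higher in KO (0.153%) and 18 past 2-fold lower (0.459%), and the median log2 ratio was 0.01, with 90% of genes between -0.50 and 0.46. After thinning, 2 and 5 genes passed. The 6 were Hist1h1b, Hist1h2ae, Xist, Gm42418, Prpf6 and Dnajc15. For 4 of these the other cells of the library had ratios of similar size. Hist1h1b, a replication-dependent linker histone, had 42 WT and 109 KO UMIs in members (log2 2.07, interval 1.55 to 2.62, other cells 1.80), and Hist1h2ae 66 and 113 (1.47, other cells 1.71). Xist, the RNA that coats the inactive X, had 229 and 337 UMIs (1.26, 1.01 to 1.50, other cells 1.07), and its antisense partner Tsix 110 and 135 (0.99, other cells 0.85). Gm42418, which overlaps ribosomal RNA sequence, had 972 and 1303 UMIs (1.12, other cells 1.20). Prpf6, a splicing factor, and Dnajc15, a cochaperone of mitochondria, had ratios of 1.17 and 1.07 in members and 0.44 and 0.23 in other cells.

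Among the 10 genes farthest below equality 5 were globins. Hbb-y, embryonic beta-like globin, had 2963 UMIs in WT and 683 in KO members (log2 -1.42, -1.54 to -1.30), and the other cells gave -0.93. Globin ratios depended on the rule: with 3 or more markers Hbb-y was at -0.52 and Hbb-bh1 at -0.23, and without Gata6 in the rule Hba-a1 was at -0.14 and Hba-a2 at -0.26. Globins are made by red cells. Hbb-y had a UMI in 548 WT members (96.0%, 94.0 to 97.4%) and 265 KO members (86.9%, 82.6 to 90.5%), and in 96.0% and 85.6% of other cells. Ptk7, a receptor-like protein of planar polarity, was lower by a like amount in members and other cells (268 and 75 UMIs, log2 -1.14, other cells -1.24).

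Several matrix genes that were higher in the pooled members than in other cells were lower in KO. Of 16 genes in the matrix and mesenchyme list 15 had at least 30 UMIs, and 3 of them, Col1a1, Postn and Lum, were past 2-fold lower in KO, where 1.41% of 7709 genes were. Summed, the list reached 4048 CPM in WT and 3044 in KO (log2 -0.41, -0.49 to -0.34), against -0.14 in other cells, and the median gene was at -0.37 against -0.21 in other cells. Col1a1 had 821 and 219 UMIs (log2 -1.21, -1.43 to -0.99, other cells -0.62) and Postn 243 and 70 (-1.10, -1.50 to -0.71, other cells -1.46). Both were lower in each alternative run, over a wide span, from -3.38 to -1.11 for Col1a1 and from -4.23 to -0.83 for Postn. Few members had a UMI of these genes: Postn 69 in WT (12.1%) and 14 in KO (4.59%), and Lum 49 (8.58%) and 12 (3.93%). Col3a1 (480 and 163 UMIs, -0.86), Col1a2 (495 and 195, -0.65) and Pdgfra, the receptor for platelet-derived growth factor of mesenchyme (367 and 157, -0.53), were below 0 without reaching 2-fold. Fn1, fibronectin, was not lower (646 and 431 UMIs, 0.12, -0.06 to 0.29), and Prrx1, a homeobox factor of limb and head mesenchyme, was higher (51 and 56 UMIs, 0.83, 0.26 to 1.41).

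Col1a1, Postn and Lum also led the Hand1 subset, which was a smaller fraction of KO members than of WT members. When each of the 3 subsets was given the same weight in WT as in KO, its share of the pooled members, the list's ratio was -0.26 in place of -0.41. Within the Hand1 subset alone the list stood at 8595 CPM in WT and 6155 in KO (log2 -0.48, -0.61 to -0.35), with Col1a1 at -0.80, Col3a1 at -1.37 and Postn at -0.66. In the Foxf1 or Osr1 subset the list was at -0.14 (-0.27 to -0.02) and in the Gata4 and Gata6 subset at -0.09 (-0.23 to 0.06).

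Some proepicardial and septum transversum genes were lower in KO and others were not. Of 12 genes 11 had at least 30 UMIs, and 4 were past 2-fold lower in KO against 1.41% of all genes, with 0 past 2-fold higher against 0.597%. Lhx9 had 40 UMIs in 22 WT members and 3 UMIs in 3 KO members (log2 -3.04, -5.38 to -1.39), and other cells gave -2.62. Wt1 had 43 and 10 UMIs (-1.41, -2.56 to -0.39, other cells -0.77), Mab21l2, a factor of septum transversum mesenchyme, 55 and 15 (-1.18, other cells -0.92), and Sema3d, a secreted guidance cue, 32 and 8 (-1.30, -2.63 to -0.15, other cells -0.11). Tbx18 had 95 and 31 UMIs (-0.92, -1.55 to -0.32) and Podxl, a sialomucin of coelomic epithelium, 167 and 70 (-0.56). Tcf21 (49 and 25 UMIs, -0.27, -1.03 to 0.45) and Upk3b (24 and 15, 0.02) did not separate from equality.

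The median of the list was -0.92 (other cells -0.36) and its sum -0.12 (-0.28 to 0.04, other cells -0.27), because Gata5 and Aldh1a2, its abundant genes along with Podxl, were higher in KO. The sum kept its sign in 8 of 15 other settings, so no direction is given for the list as a whole. Among members with 3 or more markers Lhx9 was at 1.68, and with 0 cardiac UMIs Tbx18 was at 0.83, both on few UMIs. The whole list came to 1084 CPM in WT and 724 in KO in the Gata4 and Gata6 subset (log2 -0.58, -0.88 to -0.29), and stood at 0.11 (-0.11 to 0.34) in the Foxf1 or Osr1 subset and 0.15 (-0.25 to 0.54) in the Hand1 subset. In the Gata4 and Gata6 subset Lhx9 had 34 and 0 UMIs. With the 0 in this subset taken as 3 counts, Lhx9 was 6.52-fold lower in KO. That value leaves out the counting error of the 34 WT UMIs and is not an interval bound. That subset was 28.7% of WT and 27.9% of KO members.

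Of the 13 measured splanchnic genes outside the rule 5 were above and 8 below equality, with a median of -0.02 (other cells -0.19). Of them 0 were past 2-fold in either direction, where 0.597% of all genes were higher and 1.41% lower, so the count is near the background here and in each list below with 0. The list of 16 genes together reached 2606 CPM in WT and 2836 in KO (log2 0.12, 0.04 to 0.20), against -0.14 in other cells. By subset it was at -0.20 (-0.45 to 0.04) in the Hand1, 0.08 (-0.03 to 0.18) in the Foxf1 or Osr1 and 0.21 (0.05 to 0.38) in the Gata4 and Gata6 subset. Nr2f2, Nr2f1 and Gata5 held most of its UMIs. Gata5 had 250 and 225 UMIs (217 and 317 CPM, log2 0.55, 0.28 to 0.81) and was equal in other cells (0.00). Barx1 (119 and 71 UMIs, -0.05, -0.49 to 0.39), Hand2 (162 and 99, -0.01, -0.39 to 0.36) and Bmp4 (158 and 96, -0.02, -0.40 to 0.36) had intervals that spanned equality in members. In other cells they stood at -0.78, -0.32 and -0.37, of which the last 2 values lie within the members' intervals. Gata5 was above 0 in each of the 3 subsets, at 1.03 in the Hand1, 0.41 in the Foxf1 or Osr1 and 0.48 in the Gata4 and Gata6 subset. The gut and lung mesenchyme list, which shares Barx1, Tbx5 and Wnt2 with it, had 5 of 5 measured genes below 0 and a sum at -0.17 (-0.40 to 0.06).

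**Figure D5:**
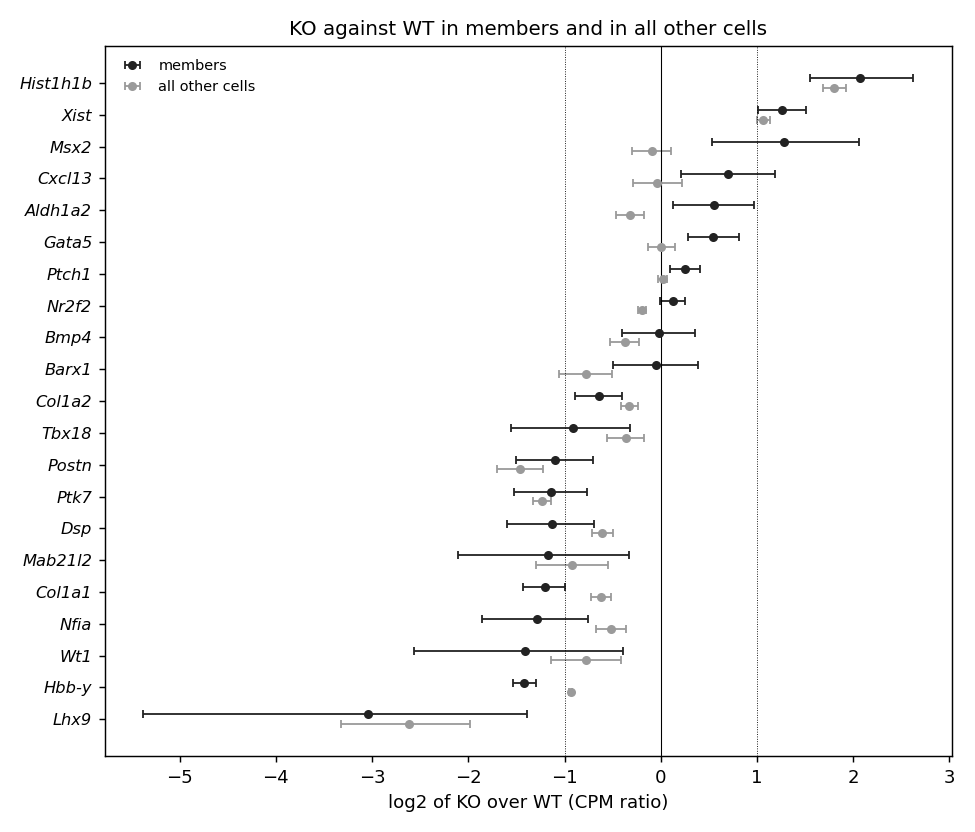
Log2 ratio of KO over WT (ratio of CPM, exact 95% conditional intervals) for 21 genes in members (black) and in all other cells (grey), with dotted lines at 2-fold. Xist, Hist1h1b, Ptk7, Postn and Lhx9 lay on the same side of 0 in both sets, whereas Aldh1a2, Msx2 and Nr2f2 were above 0 in members and below 0 in other cells. The genes were chosen after their values were seen.

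In the hedgehog list 0 of 10 measured genes were past 2-fold in either direction, against the same 0.597% and 1.41% of all genes. The sum was 0.09 (-0.03 to 0.20), and -0.0849 after thinning. Ptch1 had 838 UMIs in WT and 615 in KO members (log2 0.25, 0.10 to 0.40, other cells 0.02), and Gli1, a target and effector, 25 and 26 (0.76, -0.09 to 1.61). Smo, the signal transducer, was lower (103 and 39 UMIs, -0.70, -1.27 to -0.16, other cells -0.14).

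In the BMP list 1 of 15 measured genes was past 2-fold higher in KO, where 0.597% of genes were. It was Msx2, a homeobox target of BMP signals, with 26 UMIs in WT and 39 in KO members (22.6 and 55.0 CPM, log2 1.28, 0.53 to 2.06), and -0.10 in other cells. Those UMIs lay in 24 WT and 32 KO members, and with 0 cardiac UMIs allowed the ratio turned to -1.49. Its paralog Msx1 (79 and 39 UMIs, -0.32, -0.91 to 0.25) and the targets Id1 (0.19, -0.31 to 0.68) and Id2 (-0.02, -0.17 to 0.12) did not share that ratio, and Id3 was lower (343 and 156 UMIs, -0.44, -0.72 to -0.16).

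In the retinoic acid list 0 of 9 measured genes were past 2-fold, and the sum was 0.19 (0.08 to 0.30) against 0.13 in other cells, though -0.0398 after thinning. Aldh1a2 had 103 and 93 UMIs (89.5 and 131 CPM, log2 0.55, 0.13 to 0.97) in members and was lower in the other KO cells (-0.32). It was detected in 13.5% of WT members (10.8 to 16.6%) and 22.0% of KO members (17.4 to 27.0%), against 6.31% and 5.97% of other cells. The sums of the Wnt and FGF list (0.05, -0.09 to 0.20) and of the second heart field list (0.18, -0.03 to 0.38) had intervals that spanned equality, with 0 of 8 genes past 2-fold in each. So did that of the smooth muscle list (0.03, -0.07 to 0.13, 0 of 7 genes), in which Acta2 was lower in members (305 and 131 UMIs, -0.52) and in other cells (-0.43) alike.

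Hox genes, which place the cells along the body axis, gave 0 of 13 past 2-fold and a sum at 0.04 (-0.12 to 0.21) in members, and -0.36 in other cells. The members' sum was -0.245 after thinning and kept its sign in 10 of 15 other settings. Hoxa4 had 72 and 62 UMIs (62.6 and 87.5 CPM, log2 0.48, -0.03 to 0.99, other cells -0.61), and Hoxa5 89 and 65 (0.25, -0.24 to 0.72, other cells -0.78), and both were below 0 after thinning, at -0.21 and -0.0786. Genes of more posterior groups were sparse, with 27 and 12 UMIs of Hoxb8, 4 and 0 of Hoxb9 and 3 and 0 of Hoxc8. Members of the Gata4 and Gata6 subset had Hoxa4 at 68.9 and 120 CPM and those of the Hand1 subset at 47.7 and 38.1.

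Of 14 S phase genes 0 were past 2-fold, against 0.597% and 1.41% of all genes, and the sum was -0.07 (-0.15 to 0.01, other cells -0.09). Of 14 genes of G2 and mitosis 0 were past 2-fold and the sum was 0.10 (0.02 to 0.18, other cells 0.06), which was -0.0154 among members with 3 or more markers. Top2a, topoisomerase II alpha, was higher (606 and 500 UMIs, 0.42, 0.25 to 0.59, other cells 0.29), and Ccnb2, a mitotic cyclin, had 115 and 108 UMIs (0.61, 0.22 to 1.00, other cells -0.17), while Ccnb1 had 217 and 104 (-0.36, -0.71 to -0.02, other cells -0.30).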

How the data were processed

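Tissue was processed by the authors into droplet libraries that read the 3′ end of transcripts. Cell Ranger 1.3.1, Scanpy and the mm10 build are named in the submitters' processing notes, whereas the methods name a human genome with the reporter added. The deposited values are signal values made by the authors: UMI counts divided by the total of the cell, multiplied by 1641 and square-root transformed, with 0 mitochondrial genes left in the tables. Squaring each value and dividing by the smallest nonzero square of its cell gave whole UMIs within 0.01 for 100% of values. No count model was run, since there was 1 library per genotype. Doublets were removed by the authors per their methods, though whether before deposit is not said, and none were removed here.

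UMIs were summed over the members of each library. Ratios carry exact conditional binomial intervals, levels exact Poisson intervals and shares Clopper-Pearson intervals, at 95%. A count of 0 was taken to allow 3 counts, in the set of cells it belongs to. Genes were compared at 100 or more UMIs over both libraries' members, and list genes at 30 or more. Genes that the rule reads were left out of counts and sums. Text names genes of 25 lists (2 list symbols had no column), the 15 leading genes, the 10 genes per direction whose interval lay farthest from equality, Prdm6, Wnt1 and Xist. Other genes, and the 3 subsets, were chosen after values were seen. The values of 1 leading gene are not reported here. The members and lists were chosen with earlier results of these data known. Alternatives were thinning to 1000 UMIs per cell, stricter or altered rules, other UMI minimums and other scalings. Gene positions are from GENCODE vM21 (GRCm38), in which 17917 symbols were found. Ratio and interval were tested on simulated data. Those were independent Poisson counts, the model that the interval assumes, so the simulation does not cover UMIs clumped in single cells. Python 3.11.15, numpy 2.4.6, scipy 1.17.1, pandas 2.3.3 and matplotlib 3.10.9 were used.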

Additional observations from a re-analysis of the deposited data

Results flagged for a closer look

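Aldh1a2, Ccnb2 and Pf4, genes of the lists, had ratios of KO over WT that lay clear of 0 in opposite directions in the members and in all other cells. The difference itself was not tested, and 27 of 7709 genes with at least 30 UMIs had such a pattern. Aldh1a2 was at log2 0.55 in members (0.13 to 0.97) and -0.32 in other cells (-0.47 to -0.17). Ccnb2 was at 0.61 in members (0.22 to 1.00) and -0.17 in other cells (-0.26 to -0.09). Pf4 was at -3.50 in members (-5.82 to -1.87) and 1.80 in other cells (1.39 to 2.24), and 53 of its 55 UMIs in WT members lay in 1 cell.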

How the results depend on the processing

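Depth, 1 library per genotype and a detection rule limit these results: a cell with few UMIs cannot meet the rule, and the spread between embryos is not seen. No paired analysis was possible because each genotype has 1 library and no test was made. Sums of the splanchnic, second heart field, Wnt and FGF, matrix and S phase lists kept their sign under each of 15 alternatives, and the matrix list ranged from -0.82 to -0.26. The share of members, at log2 -0.61, was -1.08 after thinning and -0.85 with 0 cardiac UMIs allowed, and reversed to 0.40 without cells that had markers of another type. Setting the erythroid list aside there, an alternative chosen after seeing the data, left 22 genes higher and 4 lower in members than in other cells. The causes of the shifts that follow were not tested. Genes past 2-fold in KO members, 6 higher and 18 lower, were 2 and 5 after thinning, 2 and 6 with 3 or more markers, 2 and 4 with 0 cardiac UMIs, 15 and 55 at 50 UMIs, 2 and 9 at 200 UMIs, and 120 and 178 with no minimum. The lower ones were 11 without Osr1 in the rule, 10 without Gata6 and 1 without cells that had markers of another type. Genes 2-fold higher in members than in other cells, 39 as reported, were 12 after thinning, 9 with 3 or more markers, 18 without Gata6, 3 with 0 cardiac UMIs, 8 without markers of another type and 22 at 200 UMIs. The lower ones, 7 as reported, were 4, 2 and 3 with 3 or more markers, with 0 cardiac UMIs and without markers of another type, 11 at 50 UMIs and 29 with no minimum. After thinning, the log2 sums were 0.0823 for the proepicardial list, 0.24 for smooth muscle, -0.0849 for hedgehog, -0.245 for Hox genes and -0.0398 for retinoic acid, which reversed. With 3 or more markers they were 0.23 for the splanchnic list, 0.16 for the proepicardial, 0.20 for gut and lung, 0.33 for retinoic acid, -0.74 for matrix, -0.18 for Hox genes and -0.0154 for G2 and mitosis, which reversed. Without Gata4 in the rule the proepicardial list was 0.11 and matrix -0.54. Without Gata6 the proepicardial list was 0.10, hedgehog 0.21, retinoic acid 0.34 and matrix -0.75. Without Hand1 matrix was -0.30, and with subsets weighted alike, also chosen after seeing the data, it was -0.26. With 0 cardiac UMIs (93 WT and 42 KO cells) the proepicardial list was 0.0919, second heart field 0.40, gut and lung 0.56, retinoic acid 0.46, Wnt and FGF 0.22, matrix -0.82 and G2 and mitosis 0.25. Without markers of another type (87 and 94 cells) the splanchnic list was 0.0084, the proepicardial 0.30, gut and lung 0.21, hedgehog -0.0362, BMP -0.20, retinoic acid 0.30 and matrix -0.70. Col1a1 ranged from -3.38 to -1.11, Postn from -4.23 to -0.83, Hbb-y up to -0.52 and Hba-a1 up to -0.14. Some named genes turned sign, on few UMIs: Lhx9 at 1.68 with 3 or more markers and 0.62 without Gata4, Pf4 at 1.21 without Gata4 and 1.24 without Hand1, and, with 0 cardiac UMIs, Tbx18 at 0.83 and Msx2 at -1.49. Ratios whose intervals spanned 0 also changed sign: Prdm6 (9 of 13 alternatives kept it), Hoxa4 (13 of 14), Hoxa5 (11 of 14) and Lhx2 (13 of 14). Scaling by trimmed mean of M values or median of ratios gave 7 higher and 18 lower genes, and a mean over cells 6 and 16.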

Other observations

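Values of some genes by subset of the members follow. In the Foxf1 or Osr1 subset Msx2 had 6 UMIs in WT and 23 in KO (10.3 and 54.7 CPM), and Cxcl13 had 61 and 67 (105 and 159 CPM). In the Hand1 subset Ahnak, which encodes a large scaffold protein, had 70 UMIs in WT and 59 in KO (278 and 562 CPM), while Dsp, the desmosomal protein desmoplakin, had 40 and 2 (159 and 19.1 CPM) and Nfia 27 and 1 (107 and 9.53 CPM). Both were also lower in the Gata4 and Gata6 subset, Dsp with 64 and 13 UMIs and Nfia with 83 and 26. In the Gata4 and Gata6 subset Pdlim3, a PDZ and LIM protein of actin filaments, had 25 and 24 UMIs (78.3 and 131 CPM) and Itga4, an integrin chain, 32 and 4 (100.3 and 21.8 CPM). These genes were singled out after their values were seen and the differences were not tested.

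Markers of other kinds of cell were counted in members over the genes that the rule did not read. Of 571 WT members 17 had 3 or more endoderm genes detected, 11 had 3 or more cardiac genes outside the rule, 2 had 3 or more neural tube genes and 0 had 3 or more neural crest genes. Of 305 KO members the numbers were 6, 7, 0 and 0. With the genes of the rule counted too, and globins aside, 367 WT and 192 KO members had fewer than 3 detected genes of each other type's list.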
